A study of Mus musculus with 6 samples.

Results

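Open chromatin at 10 ion channel genes of smooth muscle contraction was examined by ATAC-seq, which marks DNA that the Tn5 transposase can reach. The genes were the calcium channels Cacna1c, Cacna1h and Trpc6, the calcium release channels Itpr1 and Ryr2, the potassium channel genes Kcnma1, Kcnmb1, Kcnj8 and Abcc9, and the chloride channel Ano1. Their regions were those reproducible peaks, merged over both genotypes, that overlapped a gene body or the 10 kb on either side of it. This gave 96 regions of 66679 in all, and no region fell to a pair of these genes. The cells were primary smooth muscle cells of the oviduct, taken from mice of 8 to 12 weeks on day 2 of pregnancy and kept in culture for a few hours. There were 3 WT libraries and 3 Pbrm1 cKO libraries. Pbrm1 encodes a subunit of the SWI/SNF complex, which moves nucleosomes, and the series asked how its loss changed accessibility in these cells. The labels call the controls WT, while the study names its control mice Pbrm1 fl/fl. It made the Pbrm1 cKO by adding PR-IRES-cre, so that deletion was limited to cells with progesterone receptor. The labels do not say how many animals gave each library, so p-values measure the spread between these samples.

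Contraction of smooth muscle follows a rise of calcium in the cell. Calcium enters through voltage-gated channels of the plasma membrane, of which the L-type channel is the main route, and leaves the sarcoplasmic reticulum through inositol trisphosphate and ryanodine receptors. Potassium channels oppose this by holding the membrane potential negative, while calcium-activated chloride channels depolarise the membrane. In the oviduct such activity drives the muscle movements that carry embryos toward the uterus.

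Each library was read from its own list of peaks. A region was ranked within each library among all 66679 by the best −log10 p of its entries, so that rank 1 is the strongest. The rank score used below is log2(66679 / rank), which is near 0 for the weakest region and rises by 1 each time the rank number falls to 50%. Tags are the transposase cuts piled up over a summit, recovered from the fold and p of each entry. The lists held from 201228 to 241237 distinct intervals, and WT library 3 stood apart with a median of 7 tags per interval against 11 or 12 in the other 5. The region at the start of Pbrm1 ranked between 10525.5 and 22222 in the 6 libraries and did not pass the test (adjusted p = 0.955), and since it need not lie in the deleted part it checks no label. All 5 smooth muscle marker starts (Acta2, Myh11, Cnn1, Tagln and Des) had a reproducible region, with mean rank scores from 0.53 to 1.81. Regions were also present at 3 of 3 fibroblast, 2 of 2 endothelial, 2 of 4 pericyte, 2 of 3 immune, 2 of 2 interstitial cell and 1 of 6 epithelial marker starts, the last being Foxj1. Foxj1 (4.02) and the interstitial cell marker Etv1 (2.95) scored above all 5 smooth muscle starts. The other marker starts with a region scored from 0.44 (Cspg4, pericyte) to 1.61 (Cd68, immune), so the scores do not set smooth muscle apart. None of these start regions passed the test between genotypes, the smallest adjusted p being 0.409 (limma). In bulk chromatin, fewer open cells and less openness per cell cannot be told apart.

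Sequences are shown first for those regions that the results below return to. Capitals mark matches to 3 motifs searched on both strands, namely the CArG box bound by serum response factor, the AP-1 site TGANTCA and the MCAT element CATTCC bound by TEAD factors. Matches of different motifs were counted separately even where they overlapped. The first set gives the 250 bases before the RefSeq start (GRCm38.p6, on the strand of the gene) of 3 genes. Trpc6 had a strong promoter region, Kcnj8 the promoter with the smallest p at a gene's own start, and Kcnmb1 no region.

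Trpc6, plus strand, chr9:8543892-8544141: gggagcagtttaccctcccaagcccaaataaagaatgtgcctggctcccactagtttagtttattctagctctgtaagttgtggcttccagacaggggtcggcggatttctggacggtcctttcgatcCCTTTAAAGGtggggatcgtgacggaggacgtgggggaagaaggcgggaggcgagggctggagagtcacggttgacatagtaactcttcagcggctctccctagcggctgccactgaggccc
Kcnj8, minus strand, chr6:142571615-142571864: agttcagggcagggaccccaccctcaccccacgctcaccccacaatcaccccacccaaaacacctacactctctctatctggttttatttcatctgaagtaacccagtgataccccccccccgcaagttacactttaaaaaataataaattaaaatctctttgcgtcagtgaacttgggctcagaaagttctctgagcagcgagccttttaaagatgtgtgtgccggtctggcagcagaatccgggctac
Kcnmb1, plus strand, chr11:33962763-33963012: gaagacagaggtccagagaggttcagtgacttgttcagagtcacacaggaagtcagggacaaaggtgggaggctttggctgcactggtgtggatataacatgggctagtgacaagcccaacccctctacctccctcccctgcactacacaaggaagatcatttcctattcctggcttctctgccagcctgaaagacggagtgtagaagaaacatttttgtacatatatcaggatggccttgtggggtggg

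The RefSeq promoter table held 10 sequences for 8 of the 10 genes, and Cacna1h and Itpr1 had none. Of these 10, 1 held a CArG box (Trpc6, in capitals above), 1 held an MCAT element (Abcc9) and 0 held an AP-1 site. Among all 32851 promoter sequences of the same length, 1.47% held a CArG box, 12.6% an MCAT element and 6.75% an AP-1 site.

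The second set gives windows of at most 300 bases at regions away from promoters, on the plus strand of GRCm38. They are the regions of Itpr1 and Cacna1c with the smallest p of the comparison below, the best-ranked regions of Kcnma1 and Ryr2, the best-ranked region of Abcc9, and the Ano1 region that no WT list held. The last 2 lines give 60 bases around the CArG boxes of the 2 member regions that held one in their centre.

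Itpr1 intron, chr6:108328343-108328578: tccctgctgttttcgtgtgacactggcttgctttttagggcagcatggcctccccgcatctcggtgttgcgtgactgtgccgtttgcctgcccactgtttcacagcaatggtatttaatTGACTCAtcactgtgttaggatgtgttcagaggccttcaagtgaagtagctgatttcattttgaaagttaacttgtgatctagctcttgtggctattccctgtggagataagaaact
Cacna1c intron, chr6:118708520-118708819: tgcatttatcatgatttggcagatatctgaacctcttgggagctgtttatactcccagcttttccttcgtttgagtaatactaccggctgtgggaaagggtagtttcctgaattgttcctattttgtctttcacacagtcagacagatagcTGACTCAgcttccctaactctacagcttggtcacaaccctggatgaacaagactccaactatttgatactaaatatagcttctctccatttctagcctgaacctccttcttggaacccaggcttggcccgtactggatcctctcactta
Kcnma1 intron, chr14:23633267-23633566: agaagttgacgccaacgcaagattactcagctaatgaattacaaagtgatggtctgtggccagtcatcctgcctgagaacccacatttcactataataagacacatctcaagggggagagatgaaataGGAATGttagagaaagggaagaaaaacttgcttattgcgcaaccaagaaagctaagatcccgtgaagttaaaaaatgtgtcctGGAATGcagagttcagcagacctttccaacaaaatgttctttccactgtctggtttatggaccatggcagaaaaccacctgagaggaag
Ryr2 intron, chr13:11905137-11905436: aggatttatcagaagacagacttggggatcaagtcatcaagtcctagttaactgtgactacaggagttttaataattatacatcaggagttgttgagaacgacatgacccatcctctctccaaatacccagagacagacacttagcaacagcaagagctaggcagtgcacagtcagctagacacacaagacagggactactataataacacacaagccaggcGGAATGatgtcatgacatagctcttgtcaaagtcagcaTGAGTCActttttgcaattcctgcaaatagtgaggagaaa
Abcc9 intron, chr6:142664920-142665219: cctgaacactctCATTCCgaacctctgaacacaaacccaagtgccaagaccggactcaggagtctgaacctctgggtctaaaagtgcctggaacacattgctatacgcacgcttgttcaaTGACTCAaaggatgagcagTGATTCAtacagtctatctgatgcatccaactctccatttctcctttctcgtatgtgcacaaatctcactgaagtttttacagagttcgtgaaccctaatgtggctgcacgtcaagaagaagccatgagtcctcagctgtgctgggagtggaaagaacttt
Ano1 flank, chr7:144585764-144585954: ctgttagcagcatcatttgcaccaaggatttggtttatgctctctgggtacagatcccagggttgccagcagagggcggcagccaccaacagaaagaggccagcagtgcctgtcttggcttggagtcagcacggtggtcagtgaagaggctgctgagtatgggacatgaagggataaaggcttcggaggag
Itpr1 CArG box, chr6:108413646-108413705: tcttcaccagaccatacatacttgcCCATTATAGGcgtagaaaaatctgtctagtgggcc
Cacna1c window CArG box, chr6:119198906-119198965: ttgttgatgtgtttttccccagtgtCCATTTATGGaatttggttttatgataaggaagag

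In the 300 bases at the centre of each region, 39 of the 96 member regions (40.6%) held an AP-1 site, against 33.5% of all regions. Outside promoters the shares were 38 of 83 member regions (45.8%) and 43.2% of all regions, and at promoters 13.2% of all regions held such a site. An MCAT element was present in 26 member regions (27.1%, against 20.4% of all), outside promoters in 27.7% of the members and 23.7% of all regions. A CArG box was present in 2 member regions (2.08%, against 1.62%). The Itpr1 and Cacna1c windows shown, each with 1 AP-1 site, are among the 39.

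Most member regions were intronic, which the choice of regions over gene bodies favours. Of the 96 regions, 72 lay in introns, 13 at promoters, 6 in exons and 5 between genes. Cacna1c had 30 regions, Itpr1 23 and Kcnma1 20, whereas Ano1 had 6, Cacna1h 5, Abcc9 4, Ryr2 4, Kcnj8 2, Trpc6 2 and Kcnmb1 none. The longer genes mostly held more regions, with Ryr2 as an exception. Ryr2 and Cacna1c span 554 and 609 kb, and their windows held 0.697 and 4.77 regions per 100 kb. The median rank score of the 96 regions was 0.75, against 0.96 over all regions. Among regions outside promoters the medians were 0.68 and 0.77.

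**Figure D1:**
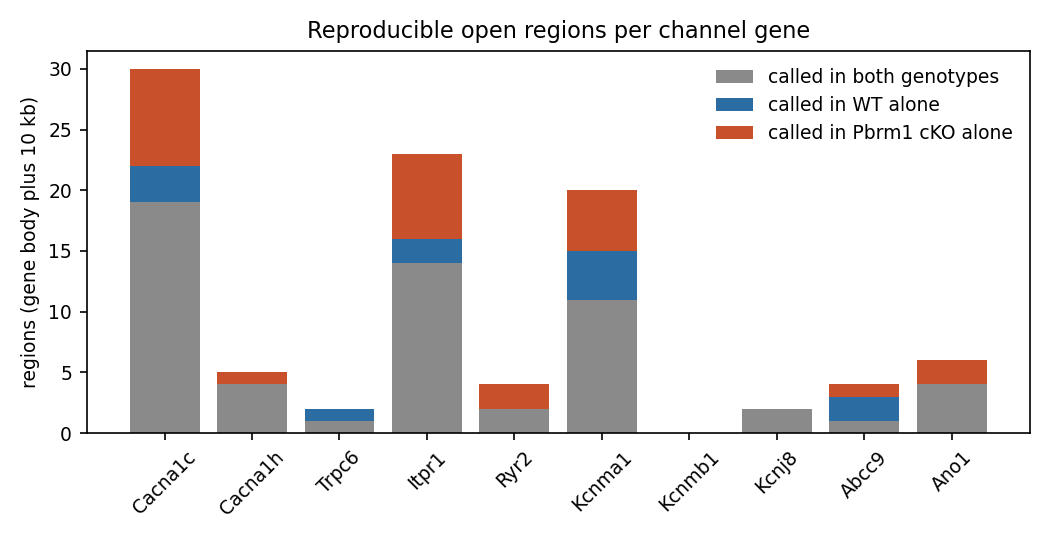
Bars show the number of reproducible regions (vertical axis) in the body of each channel gene plus 10 kb (horizontal axis), stacked by whether the region was called in both genotypes, in WT alone or in Pbrm1 cKO alone. Cacna1c, Itpr1 and Kcnma1 hold 30, 23 and 20 regions and Kcnmb1 holds none.

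The start regions differed widely in strength between the genes. Itpr1 was the strongest, above 94.9% of all promoter regions, followed by Trpc6 (68.8%), Cacna1c (56.0%), Cacna1h (54.8%), Kcnj8 (34.5%) and Abcc9 (18.1%). Itpr1 also had weaker regions at starts of shorter transcripts, above 54.3% and 36.6% of promoter regions. The rank scores of Itpr1 lay above those of Trpc6 in all libraries, those of Cacna1c and Cacna1h overlapped in both genotypes, and the other neighbours in this order overlapped in 1 genotype. Ryr2, Kcnma1, Ano1 and Kcnmb1 had no reproducible region within 1 kb of a coding start. Weak entries were nevertheless listed there in all 6 libraries for Ryr2 (10 to 22 tags), Kcnma1 (9 to 17 tags) and Ano1 (9 to 13 tags). At the single start of Kcnmb1 there were entries in WT libraries 2 and 3 alone, with 8 and 6 tags.

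**Figure D2:**
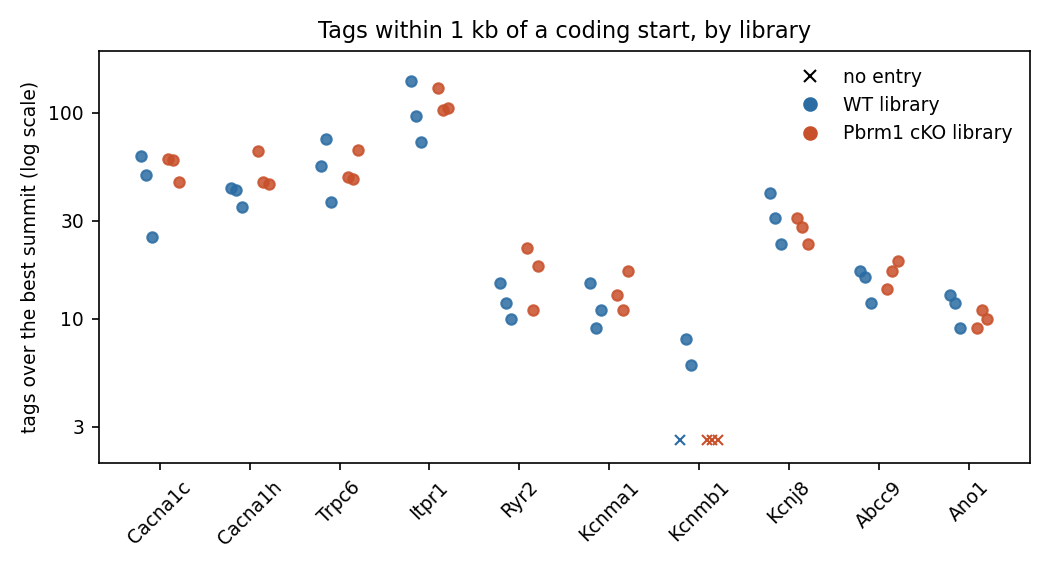
Each point is the number of tags over the strongest summit (log scale) within 1 kb of a coding start of the gene in 1 library, and crosses mark libraries with no entry. Itpr1 holds 72 to 142 tags, while the starts of Ryr2, Kcnma1, Ano1 and Kcnmb1 hold 22 tags or fewer.

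The main question was whether accessibility at these genes differed in Pbrm1 cKO cells. It was tested with limma on the rank scores of all 66679 regions with Benjamini-Hochberg adjustment, and 0 of the 96 member regions passed an adjusted p of 0.05, against 0.0675% of all regions. At an unadjusted p under 0.05 there were 14 member regions (14.6%), 8 higher and 6 lower in Pbrm1 cKO, against 15.9% of all regions. Most of these regions had been called in the one genotype where they were higher. Of the 8 that ranked higher, 7 were called in Pbrm1 cKO alone, and of the 6 that ranked lower, 4 were called in WT alone. Such a region entered the set through the genotype where it was stronger, so its direction follows from the choice of regions, and its p is given below as a description. Among the 58 member regions called in both genotypes, 3 had an unadjusted p under 0.05 (5.17%, against 9.58% of all such regions). The count of 14 fell to 8 of the 96 without WT library 2 and to 7 without Pbrm1 cKO library 2. At these settings 14.4% and 12.3% of all regions had such a p. Groups did not overlap at 13 regions that ranked higher in Pbrm1 cKO and 7 that ranked lower, against 10.6% and 10.9% of all regions, so the members stood near the background on each count. The difference was above 0 at 58 of the 96 regions (60.4%, against 50.0% of all regions). It was above 0 at 36 of the 58 called in both genotypes (62.1%, against 49.9% of all such regions). By the choice of regions it leaned upward at those called in Pbrm1 cKO alone (19 of 26) and downward at those called in WT alone (3 of 12 above 0). Its median was 0.07 over the members and 0.00 over all regions. The standard error of a member ran from 0.09 to 0.75 with a median of 0.28, so the smallest difference that could pass varied between regions. Ranks cannot show a change that all regions of a library share.

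**Figure D3:**
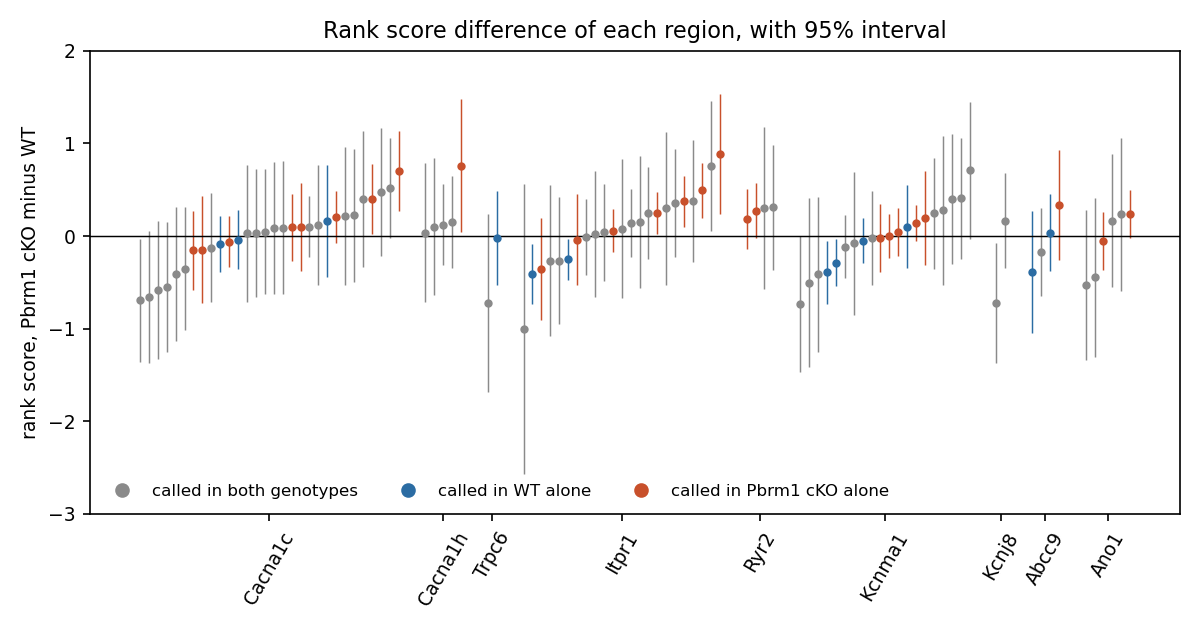
Each point is 1 of the 96 regions, grouped by gene and ordered by value, with the difference in rank score (Pbrm1 cKO minus WT, vertical axis) and its 95% interval from limma. Colours give the genotypes in which the region was called, and the points range from −1.0 to 0.88 with none past the adjusted threshold.

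Cacna1c encodes the pore of the L-type calcium channel. Of its 30 regions, 18 had a higher and 12 a lower mean rank score in Pbrm1 cKO. The region at its own start (chr6:119108625-119109439, 52 bp from an annotated start) ranked 11365, 13269.5 and 19923.5 in the WT libraries and 13594.5, 11366.5 and 18311.5 in the Pbrm1 cKO libraries. The groups overlapped (difference 0.03, 95% interval −0.71 to 0.77, adjusted p = 0.981).

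The best-ranked region of the Cacna1c window (chr6:119174878-119175951) lay at the promoter of Dcp1b, a decapping gene within the same interval, and ranked from 6631.5 to 8955 in the 6 libraries (difference 0.22, adjusted p = 0.820). The smallest p of the gene was found in an intron, 1364 bp from the nearest annotated Cacna1c start (chr6:118708511-118708829, shown above with its AP-1 site). This region was called in Pbrm1 cKO alone, so a higher rank there follows from how it was chosen. It was listed with 11, 14 and 4 tags in the WT libraries and 28, 20 and 20 tags in the Pbrm1 cKO libraries. All 3 Pbrm1 cKO libraries ranked it above all 3 WT libraries, with ranks of 30254.5 to 39653 against 51425.5 to 63416. The rank score was 0.18 ± 0.17 in WT and 0.88 ± 0.22 in Pbrm1 cKO (mean ± SD, n = 3 each), a difference of 0.70 ± 0.21 (SE) that did not pass (adjusted p = 0.126, limma).

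This Cacna1c region was the only member region called when tags were compared in place of ranks, a choice made after the data were seen. Tags were divided by the background level of each library, and 62328 regions with entries in all 6 libraries were tested, of which 1.05% were called. On that scale the median of all regions was 0.38 (log2) higher in Pbrm1 cKO. The Cacna1c intron region was 1.41 ± 0.39 (SE) higher, or 1.03 above that median (adjusted p = 0.0354, limma). Among the 9039 regions tested that were called in Pbrm1 cKO alone, as this one was, 347 (3.84%) passed on the same scale and all 347 were higher in Pbrm1 cKO, so the call draws on the choice of regions and is no independent support. Over the 87 member regions tested in this way, the median was 0.43 and 51 lay above the median of all regions. WT library 3, with its few tags, moves with this scale, and its part in the result was not tested.

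Cacna1h encodes a T-type calcium channel, which opens at more negative potentials. Its start region (chr17:25433356-25434516) ranked from 10486 to 21027.5 in WT and from 11172 to 17815 in Pbrm1 cKO, and the difference of 0.04 had a 95% interval of −0.72 to 0.79 (adjusted p = 0.976). All 5 regions of the window had a mean difference above 0, from 0.04 to 0.76. The largest was at the promoter of the neighbour Tpsg1 (chr17:25372540-25372959), a mast cell tryptase gene, and was called in Pbrm1 cKO alone. It held 16, 28 and 10 tags in WT and 37, 31 and 40 tags in Pbrm1 cKO libraries. The ranks overlapped, as WT library 2 ranked it 26272.5, above Pbrm1 cKO libraries 1 and 2 (difference 0.76 ± 0.34 SE, adjusted p = 0.287).

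Trpc6, a receptor-operated cation channel, had 2 regions. The one at its start (chr9:8543717-8544885), which covers the promoter with the CArG box shown above, ranked 10799.5, 3221 and 7725 in WT and 15881, 11699 and 6534 in Pbrm1 cKO libraries. The strongest library was WT library 2 and the weakest Pbrm1 cKO library 1, and the groups overlapped (difference −0.73, 95% interval −1.69 to 0.24, adjusted p = 0.462). Without WT library 2 the difference was −0.22. The other region, in an intron (chr9:8558564-8558905), was called in WT alone and differed by −0.02.

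Itpr1 encodes the inositol trisphosphate receptor of the sarcoplasmic reticulum. Its promoter (chr6:108212640-108213431) was the strongest region of all 96, with 142, 97 and 72 tags in WT and 132, 103 and 105 tags in Pbrm1 cKO libraries. WT library 1 ranked it 235.5 and the other 5 libraries ranked it from 954 to 2341. The rank score was 6.27 ± 1.63 in WT and 5.26 ± 0.75 in Pbrm1 cKO (mean ± SD, n = 3 each), which differed by −1.0 with a 95% interval of −2.57 to 0.57 (adjusted p = 0.547, limma). This difference rested on WT library 1, being −0.06 without it, and was −0.13 when regions were ranked by fold.

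**Figure D4:**
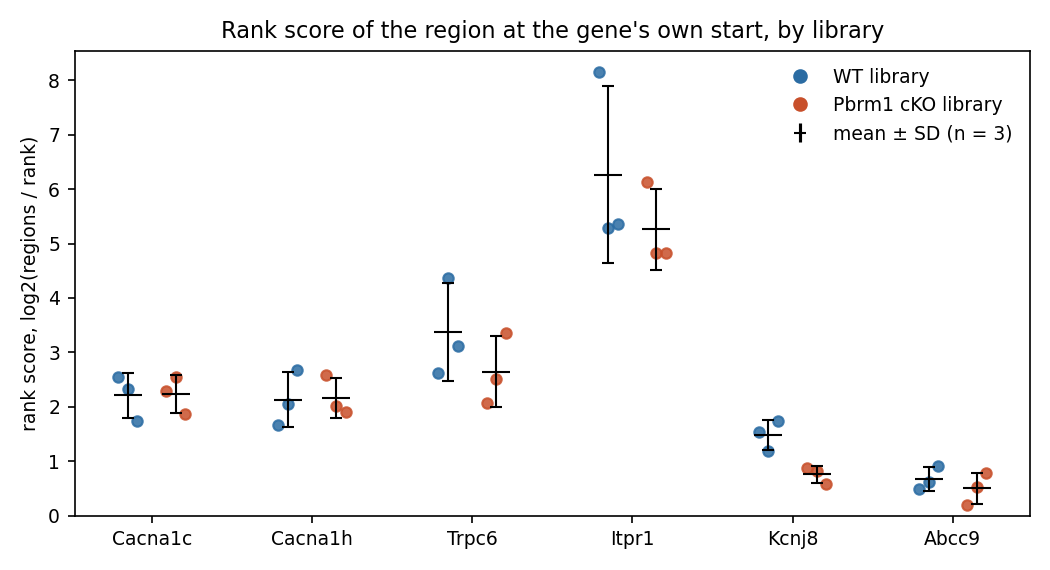
Points show the rank score (vertical axis, log2 of 66679 over the rank) of the region at the start of 6 channel genes in each library, with the mean ± SD of 3 libraries. Kcnj8 is the gene whose groups do not overlap, and Itpr1 holds the highest scores, from 4.83 to 8.15.

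Itpr1 held 7 of the 14 member regions with an unadjusted p under 0.05, 5 higher and 2 lower in Pbrm1 cKO, out of 23 regions and against 15.9% of all regions. Of the 5 higher, 4 were called in Pbrm1 cKO alone, and both lower ones were called in WT alone. The smallest p was at an intron region (chr6:108328343-108328578, shown above with its AP-1 site) that was called in Pbrm1 cKO alone. It had 8 tags in each of WT libraries 1 and 2, no entry in WT library 3, and 19, 16 and 20 tags in the Pbrm1 cKO libraries. Its ranks did not overlap, at 63990 to 65147 in WT and 39316.5 to 49923.5 in Pbrm1 cKO (difference 0.49 ± 0.14 SE, adjusted p = 0.122, limma). On a scale of normal scores instead, which called 2.33% of all regions, it was the 1 member region called (adjusted p = 0.0499), and with the replicate number as a block added to that scale none was. On that scale 488 of the 11619 regions called in Pbrm1 cKO alone passed (4.2%), all of them higher, so this call too draws on the choice of regions. Another intron region (chr6:108476737-108477376), named after its values were seen, ranked 34830 to 59853 in WT and 20676.5 to 34244.5 in Pbrm1 cKO libraries (difference 0.88 ± 0.31 SE, adjusted p = 0.178, limma). This region was likewise called in Pbrm1 cKO alone, so its direction follows from the choice of regions.

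Ryr2, a ryanodine receptor best known from heart muscle, was sparsely open, with 4 regions over its whole window and none at its start. The best-ranked of these lay in an intron (chr13:11905041-11905532) and carried an AP-1 site and an MCAT element. It held 34, 45 and 12 tags in WT and 52, 39 and 35 tags in Pbrm1 cKO libraries, the lowest being WT library 3. The difference of 0.30 (adjusted p = 0.778) turned to −0.18 without WT library 3. The smallest p belonged to a region beyond the 3′ end of the gene (chr13:11549687-11549925), which ranked from 56250.5 to 63780.5 in WT and from 45226.5 to 57391 in Pbrm1 cKO (difference 0.27, adjusted p = 0.352, limma). It was called in Pbrm1 cKO alone, so a higher rank there follows from how it was chosen.

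Kcnma1 encodes the pore of the large-conductance calcium-activated potassium channel, which hyperpolarises the cell when calcium rises. It lies on chromosome 14, 7.005 Mb from Pbrm1, and there the deletion and linkage to the targeted locus cannot be told apart. Its 20 regions divided evenly, 10 with a higher and 10 with a lower mean rank score in Pbrm1 cKO. The best-ranked (chr14:23632881-23633953, shown above with 2 MCAT elements) was an intron region with 74, 59 and 26 tags in WT and 66, 38 and 57 tags in Pbrm1 cKO libraries. Its groups overlapped (difference −0.50, 95% interval −1.41 to 0.41, adjusted p = 0.616), and the difference was −0.12 when WT library 1 was left out and −0.93 when WT library 3 was. The smallest p was at a weak intron region called in WT alone (chr14:23829869-23830078), with 16, 18 and 6 tags in WT, 14 and 6 tags in Pbrm1 cKO libraries 1 and 2 and no entry in Pbrm1 cKO library 3 (difference −0.39 ± 0.16 SE, adjusted p = 0.243).

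Kcnmb1 encodes the beta subunit that raises the calcium sensitivity of the same channel and is typical of smooth muscle. It had no region in either reproducible list. The relaxed lists held 3, 6 and 7 intervals over the gene and its flanks (chr11:33963013-33973641 plus 10 kb) in the WT libraries and 1, 2 and 1 in the Pbrm1 cKO libraries. The groups did not overlap, with a mean of 5.33 ± 2.08 in WT and 1.33 ± 0.58 in Pbrm1 cKO (SD, n = 3 each; exact two-sided permutation p = 0.1, the smallest that 3 against 3 allows, adjusted p = 0.875 over 10 genes). With entries of q at or below 0.05 alone, the numbers were 3, 5 and 4 against 1, 1 and 1. Among the 100000 best-ranked intervals of each library, the difference in means was −0.33 in place of −4.0. Only an interval of WT library 3, ranked 89518, lay within that cutoff, so this setting cannot judge the difference. All 20 intervals were weak, with 4 to 9 tags at their summits.

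Kcnj8 and Abcc9 encode the Kir6.1 pore and the SUR2 subunit of the ATP-sensitive potassium channel of muscle and lie 16.2 kb apart on chromosome 6. The groups did not overlap at the Kcnj8 promoter (chr6:142570984-142571689), 1 of the 13 promoter regions in the member windows (7.69%, against 17.0% of all promoter regions). Some of these 13 lay at starts of other genes, namely Dcp1b, Fadd, Tpsg1 and Gm44930. The Kcnj8 promoter ranked 22921.5, 29439.5 and 20046 in WT and 36188, 37633 and 44451 in Pbrm1 cKO libraries, so that every Pbrm1 cKO library placed it lower. The rank score was 1.48 ± 0.28 in WT and 0.76 ± 0.16 in Pbrm1 cKO (mean ± SD, n = 3 each), a difference of −0.72 ± 0.31 (SE) that did not pass (adjusted p = 0.263, limma). The tags overlapped, at 41, 31 and 23 against 31, 28 and 23.

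The Abcc9 promoter (chr6:142701796-142702693) was weak in all libraries, with 12 to 17 tags in WT and 14 to 19 in Pbrm1 cKO (difference −0.17, 95% interval −0.65 to 0.31, adjusted p = 0.769). The best-ranked region of the gene was an intron region called in WT alone (chr6:142664851-142665288), with 2 AP-1 sites. It held 29, 17 and 14 tags in WT and 31, 11 and 13 tags in Pbrm1 cKO libraries. Pbrm1 cKO library 1 ranked it highest of all 6 (27661), and the groups overlapped (difference −0.39, adjusted p = 0.588).

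Ano1 encodes a calcium-activated chloride channel found in smooth muscle and in interstitial cells. The strongest region of its window (chr7:144581558-144582602) lay at the promoter of the neighbour Fadd, an adaptor of death receptors, and ranked 3401, 4180 and 5136 in WT and 5845, 7741 and 4092 in Pbrm1 cKO libraries (difference −0.45, adjusted p = 0.640). A region of 191 bp between the genes (chr7:144585764-144585954, shown above) was the only one called in one genotype alone that no library of the other genotype listed. It held 32, 34 and 15 tags in the Pbrm1 cKO libraries. Despite these tags the Pbrm1 cKO libraries ranked it only 58769, 45168 and 66053, the last near the bottom. The difference was 0.24 (95% interval −0.03 to 0.50, adjusted p = 0.368, limma). It was 0.08 without Pbrm1 cKO library 2 and 0.04 when regions were ranked by fold.

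Calls in one genotype alone were then counted. Of the 96 regions, 58 were called in both genotypes, 26 in Pbrm1 cKO alone (27.1%, against 17.4% of all regions) and 12 in WT alone (12.5%, against 13.4%). Each genotype had 1 pooled list, so no test was made. Outside promoters the shares called in Pbrm1 cKO alone were 30.1% of the members and 21.4% of all regions. Cacna1c had 8 of the 26, Itpr1 7 and Kcnma1 5. Most of these regions were listed on both sides, as 19 of the 26 and 10 of the 12 had entries in all 6 libraries. With the better-ranked 50% of each list the counts were 12 in Pbrm1 cKO alone and 2 in WT alone. The shares over all regions at that setting are not given, so these counts have no background and are not read as a result about the members.

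The number of relaxed-list intervals overlapped between the genotypes at 9 of the 10 genes, Kcnmb1 being the exception. Full separation of 3 against 3 has an exact permutation p of 0.1, and 10 genes were looked at. The share of all genes with such a separation is not given, so the exception is not read as a result about Kcnmb1. Cacna1c had 114 ± 8.66 intervals in WT and 112 ± 2.52 in Pbrm1 cKO, Itpr1 65.3 ± 1.53 and 67.0 ± 1.00, and Kcnma1 66.0 ± 2.00 and 68.7 ± 4.62 (SD, n = 3 each). Ryr2 ranged from 13 to 30 intervals in WT and from 21 to 29 in Pbrm1 cKO, and its difference of 3.33 became −0.83 without WT library 1. With entries of q at or below 0.05 alone, Ryr2 had 12, 15 and 14 intervals in WT and 21, 22 and 21 in Pbrm1 cKO libraries, which did not overlap (a difference of 7.67), and Kcnma1 had 62, 54 and 42 against 66, 57 and 67. A larger difference under this filter was not particular to Ryr2, though at Kcnma1, Itpr1 and Cacna1c the groups still overlapped. The filter cut WT library 3 from 30 to 14 intervals at Ryr2, from 68 to 42 at Kcnma1, from 65 to 41 at Itpr1 and from 119 to 85 at Cacna1c. The differences at the last 3 genes became 10.7, 6.33 and 3.67. At Ryr2, WT libraries 1 and 2 also lay below all Pbrm1 cKO libraries under the filter, and the cause was not tested. The share of all intervals that passed the filter is not given. The difference of −1.67 at Cacna1c became 0.83 without WT library 1 and also without WT library 3. Exact permutation p ranged from 0.1 to 1 over the 10 genes and the adjusted p from 0.875 to 1.

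**Figure D5:**
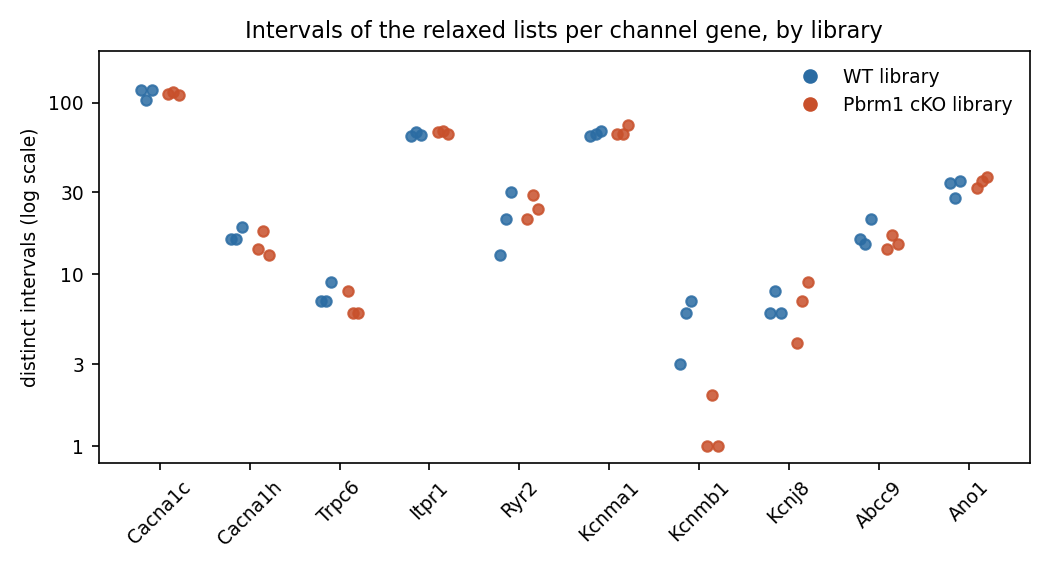
Points show the number of distinct relaxed-list intervals (log scale) over each gene body plus 10 kb in each library. Kcnmb1 is the gene whose groups do not overlap, with 3 to 7 intervals in WT and 1 or 2 in Pbrm1 cKO libraries (exact permutation p = 0.1, adjusted p = 0.875).

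A wider list of 58 related genes of membrane excitability and calcium handling was set beside the 10. Of these, 56 had 342 regions in all, and 0 regions passed the adjusted test. At an unadjusted p under 0.05 there were 72 (21.1%, against 15.9% of all regions), 25 higher and 47 lower in Pbrm1 cKO, whereas the members had 8 and 6. Over all regions 5005 were higher and 5581 lower. The related list held 64 regions called in WT alone and 50 in Pbrm1 cKO alone, against 12 and 26 among the members. Such regions lean toward the genotype that called them, so the splits of the lists cannot be compared directly. The 3 smallest p-values were in introns of Cacna2d3, an auxiliary calcium channel subunit, Slc8a1, the sodium-calcium exchanger, and Trpm7, a cation channel with a kinase domain. The first 2 regions were called in WT alone and the third in Pbrm1 cKO alone, so their directions follow from the choice of regions. The Cacna2d3 region (chr14:29366373-29366834) ranked from 35549.5 to 38201 in WT and from 62280.5 to 65347 in Pbrm1 cKO libraries (difference −0.78, adjusted p = 0.0846), and it lies 1.65 Mb from Pbrm1. The Slc8a1 region (chr17:81618384-81618940) ranked from 12823 to 21219 in WT and from 34014 to 63927.5 in Pbrm1 cKO (difference −1.46, adjusted p = 0.0906). The Trpm7 region (chr2:126815823-126816187) was higher in Pbrm1 cKO by 0.67 (adjusted p = 0.0906).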

How the data were processed

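ATAC-seq peak lists of 6 single libraries, 3 WT and 3 Pbrm1 cKO, and 1 reproducible list per genotype were used. Per the study's methods and the labels, the authors trimmed reads with cutadapt, aligned them with Bowtie2 to GRCm38 through the ENCODE ATAC-seq pipeline and called peaks with MACS2, at a p of 0.01 with at most 300000 entries for each library and at an irreproducible discovery rate (IDR) of 0.05 for each genotype. The deposited values are the fold over local background (a ratio), the −log10 p and −log10 q of the authors' peak caller, and a rescaled score that was not used. The authors compared read counts in merged peaks, which were not used here, so ranks took their place and total depth is unknown. The summit offset deposited in column 10 was not used.

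Entries with the same coordinates were reduced to 1 interval. The IDR lists were merged by overlap of at least 1 bp and annotated with GENCODE M21, promoters being within 1 kb of a transcription start. Ranks were taken within each library by best −log10 p, with ties averaged and regions without an entry tied last. The lack of an entry means that a region missed the cutoff of that list, not that it was closed. The rank scores were fitted with limma 3.58.1 in R 4.3.3 (lmFit, eBayes with a trend) and tested on simulated data. Intervals per gene were compared by exact permutation (scipy 1.17.1) with adjustment over 10 genes. Tags were solved from fold and p, and 100% came out whole within 0.02. Sequences were read with samtools 1.23.1 from the RefSeq copy of GRCm38.

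The members, the list of related genes and the marker lists were chosen with earlier results of these data known. For each gene the named regions were the one at its own start, the best-ranked, that with the smallest p, any called, and any called in one genotype that no library of the other listed. For the related genes they were the 3 smallest p-values. Alternatives were other scales, filters, windows and overlaps, a replicate block and leaving out each library.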

Additional observations from a re-analysis of the deposited data

How the results depend on the processing

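No member region passed the adjusted test under the log2 rank scale, and the count stayed at 0 with ranking by fold, entries in all 6 libraries, the better-ranked 50% of the regions, entries of q at or below 0.05, an overlap of 50%, both other windows, the replicate block and each library left out. It was 1 with normal scores and, in an alternative added after seeing the data, 1 with tags on a common scale. These were different regions, of Itpr1 and of Cacna1c, and both had been called in Pbrm1 cKO alone. The 14 regions with an unadjusted p under 0.05 became 6 among the better-ranked 50%, where fewer regions were tested and 10.2% of all of these had such a p. They ranged from 7 to 15 when 1 library was left out, while the share over all regions ranged from 11.8% to 16.6%. Same-numbered libraries did not deviate together over all regions (correlations from −0.0549 to 0.00906). This cannot decide whether they were collected or processed together, which the labels do not say. The replicate block gave 0 called member regions and 13 with an unadjusted p under 0.05, against 15.5% of all regions. Regions called in WT alone fell from 12 to 2 and those in Pbrm1 cKO alone from 26 to 12 in the better-ranked 50% of the lists, where the shares over all regions are not given.

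The interval difference at Cacna1c, −1.67, reversed to 3.67 with q at or below 0.05 and to 0.33 over the gene body alone, and ranged from −6.67 to 0.83 with 1 library left out. That at Abcc9, −2.0, reversed to 0.33 among the 100000 best-ranked intervals. That at Ryr2 ranged from −0.83 to 7.67 with 1 library left out. The Kcnmb1 difference of −4.0 became −0.33 among the 100000 best-ranked intervals, a cutoff that only an interval of WT library 3 met. The difference at Ryr2 grew from 3.33 to 7.67 with q at or below 0.05. The cause was not tested. Other differences near 0 changed sign. That at the Cacna1c start ranged from −0.20 to 0.22 and that at the Cacna1h start from −0.19 to 0.31 with 1 library left out, the latter being −0.00799 when ranked by fold, and that at the best-ranked Ryr2 region from −0.18 to 0.77. With 1 library left out, the uncalled differences at the Abcc9 intron region ran from −0.76 to −0.16, at the Abcc9 promoter from −0.31 to −0.02 and at the Fadd promoter from −0.69 to −0.23. Total reads per library are unknown, so no limit from depth can be given.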
